A study of Mus musculus with 6 samples.

Results

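Cadherins are the calcium-dependent adhesion molecules that hold neighboring cells together, and Snail, Slug, Twist and the Zeb factors are transcriptional repressors that switch epithelial adhesion genes off. The 10 genes described here, chosen by name from the 33965 genes of the deposited table, were Epcam, Cdh1, Cdh2, Cdh11, Vim, Snai1, Snai2, Twist1, Zeb1 and Zeb2. All 10 had a row in the table and passed the filter on low counts, which left 19602 genes. They were measured by bulk RNA-seq in 6 tumors labelled MC38, a mouse colon carcinoma line, which were grown under the skin of C57BL/6 mice. The mice were female and bought at 6 weeks of age, and cells under the same label were inoculated in both groups. Of the tumors, 3 came from mice given PBS, the vehicle, and 3 from mice given GB2 intravenously. GB2 is a prodrug that couples MSA-2, an agonist of the innate DNA-sensing adaptor STING, to artesunate, used against the macrophage receptor TREM2. The sample labels give neither its dose nor the day of sampling, and they do not state that each tumor came from another mouse, so the p values measure the spread between these samples.

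Epithelial-mesenchymal transition is the program by which epithelial cells give up E-cadherin and keratins and take up vimentin and N-cadherin. It operates in gastrulation, in neural crest migration and in carcinomas. Snail and Zeb proteins bind E-boxes, short DNA motifs of the form CANNTG, with a preference for CAGGTG or its reverse complement CACCTG, and recruit corepressors there. In melanocytes, which derive from the neural crest, SNAI2 and ZEB2 are part of the normal state. Fibroblasts and macrophages also express several of these genes. A bulk value sums over all cells of a tumor, so fewer cells of a type and less RNA per cell cannot be told apart.

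The total of the estimated counts ran from 64764405 to 83690056 per tumor, with the 3 GB2 libraries above the 3 PBS libraries. About 4 counts stood for 1 read pair, so that a count of 12 is a small number of read pairs.

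The labelled tissue was checked against genes that define it, and the libraries went against their label. Lists of melanocyte lineage genes and colon epithelium genes were drawn up for this check after the values had been seen. Levels are given as FPKM, which scales fragments for transcript length and library depth and so allows genes to be compared. The 13 melanocyte lineage genes summed to between 3280 and 5165 FPKM in the PBS tumors and to between 4312 and 5626 in the GB2 tumors. Tyrp1, an enzyme of melanin synthesis, averaged 1350 FPKM over the 6 tumors and ranked 16 among all genes of the table. Pmel, the melanosome fibril protein, averaged 1319 FPKM and Dct, another melanin enzyme, 907 FPKM. Sox10, the neural crest transcription factor, ranged from 93.0 to 241 FPKM. By contrast, the 12 colon epithelium genes summed to at most 7.59 FPKM in any tumor. Cdx2, the intestinal transcription factor, reached at most 0.0126 FPKM, the epithelial keratin gene Krt8 at most 1.17 FPKM and the intestinal cadherin gene Cdh17 at most 0.109 FPKM. Both groups showed this profile. The study also grew tumors of B16F10, a mouse melanoma line, in C57BL/6 mice. What gave rise to the profile was not tested. The samples are therefore called the tumors labelled MC38, and no result here is tied to colon carcinoma cells.

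**Figure D1:**
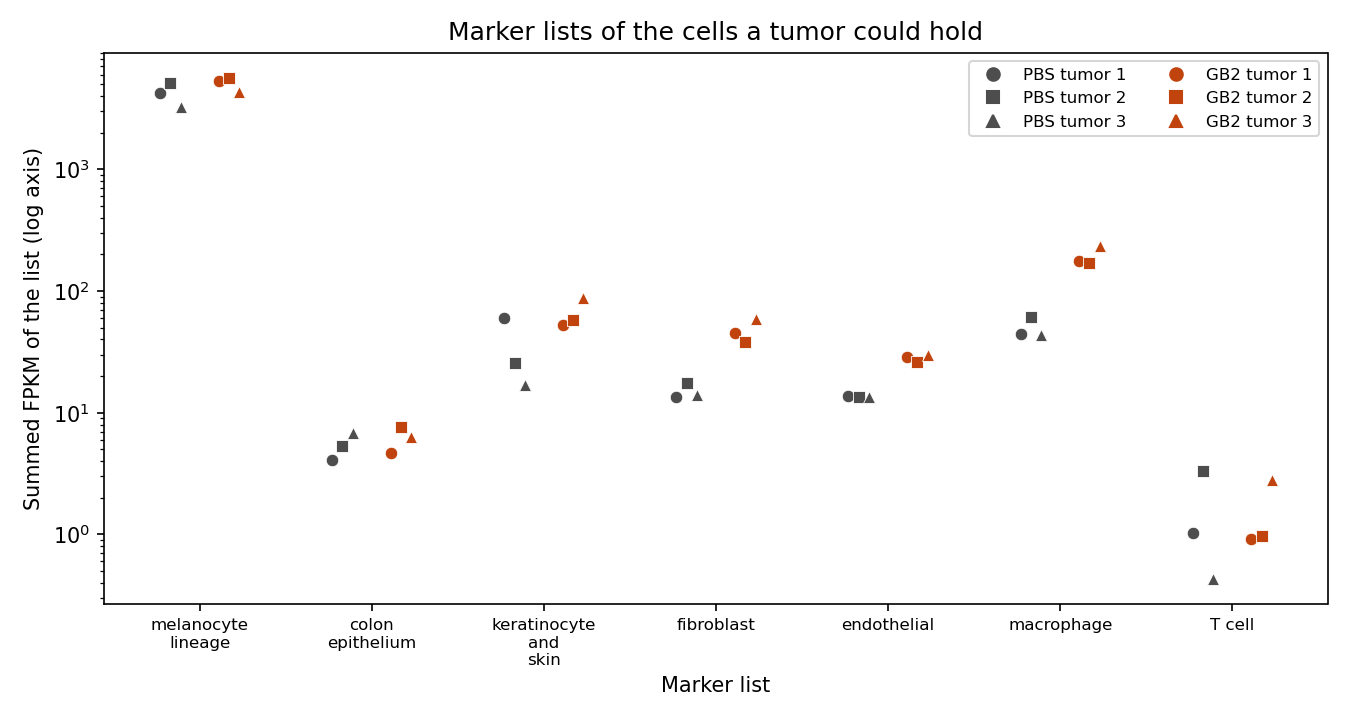
Summed FPKM (log axis) of the genes of each marker list, by tumor, with PBS tumors in grey and GB2 tumors in red. The melanocyte lineage list lies above 3280 FPKM in every tumor and the colon epithelium list below 7.59 FPKM, while the fibroblast, endothelial and macrophage lists lie higher in every GB2 tumor than in every PBS tumor.

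Among the members, Vim, Cdh2, Zeb2 and Snai2 averaged more than 1 FPKM in both groups and the other 6 averaged less. Vim, the intermediate filament of mesenchymal cells, stood far above the rest at 346 FPKM over the 6 tumors, higher than 99.5% of the genes tested. Cdh2, which encodes N-cadherin, averaged 8.29 FPKM and Zeb2 averaged 5.47 FPKM. Snai2, which encodes Slug, averaged 2.36 FPKM. Below these came Snai1 (0.687 FPKM), Cdh1 (0.492 FPKM), Zeb1 (0.468 FPKM), Cdh11 (0.369 FPKM), Twist1 (0.297 FPKM) and Epcam (0.254 FPKM). Among the genes tested, these low members ran from percentile 19.9 (Epcam) to percentile 32.2 (Snai1). In the order over all 6 tumors, Vim did not overlap Cdh2 and Snai2 did not overlap Snai1, while each of the other neighbors overlapped in range. The order differed between the groups for the low genes. By group mean, Epcam was the lowest member in the PBS tumors and Twist1 was the lowest in the GB2 tumors. In the PBS tumors the range of Epcam overlapped that of Cdh11.

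**Figure D2:**
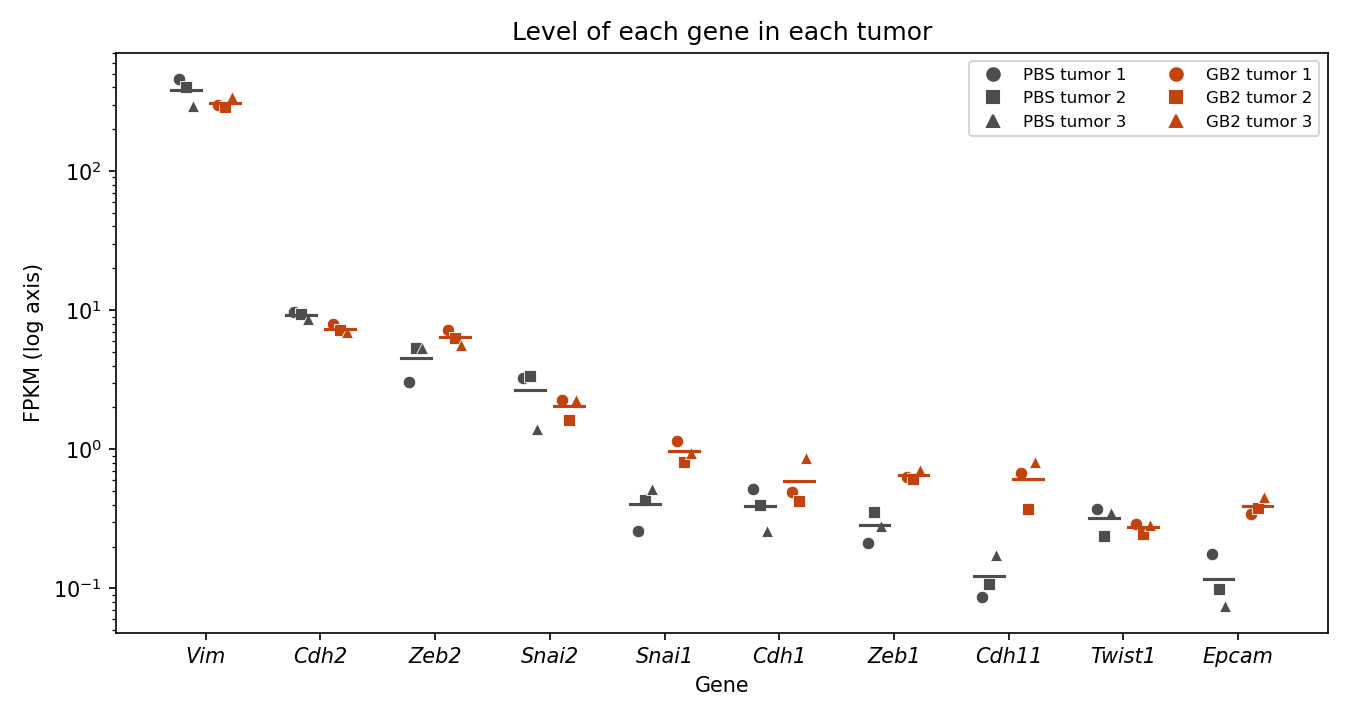
FPKM (log axis) of each of the 10 genes in each of the 6 tumors, with a bar at each group mean. Vim lies between 291 and 456 FPKM in every tumor, and the GB2 tumors lie apart from the PBS tumors in Epcam, Cdh2, Cdh11, Snai1, Zeb1 and Zeb2.

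The comparison asked which of these genes differed between GB2 and PBS tumors. Cdh11, Epcam, Snai1 and Zeb1 were between 2.19 and 4.71 times as abundant in GB2 tumors, while Cdh2, Vim, Snai2 and Twist1 were 1.24 to 1.40 times as abundant in PBS tumors. Cdh1 and Zeb2 lay between these, at 1.41 and 1.34 times the PBS level in GB2 tumors. A gene counted as called when its adjusted p was below 0.05 and it differed at least 2-fold. The quasi-likelihood test of edgeR called 0 of the 10 members and 0 of all genes tested (0%). Without adjustment, p was below 0.05 for 5 members, 4 of them higher in GB2 tumors (4.69% of all genes) and 1 lower (2.24%), and for 1360 genes in all. limma on the FPKM values also called 0, whereas DESeq2 called 2 members, Cdh11 and Zeb1, and 373 genes in all (1.65% of those with an adjusted p). Both an unadjusted p below 0.05 and a fold of 2 were reached by 4 members (4.66% of all genes in either direction), all higher in GB2 tumors (3.74%), and 0 were lower (0.918%). The groups did not overlap in 6 members (15.3% of all genes), with the GB2 tumors above in 5 (8.61%) and below in 1 (6.68%). The median log2 fold change was 0.46 over the members and -0.0164 over all genes tested.

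**Figure D3:**
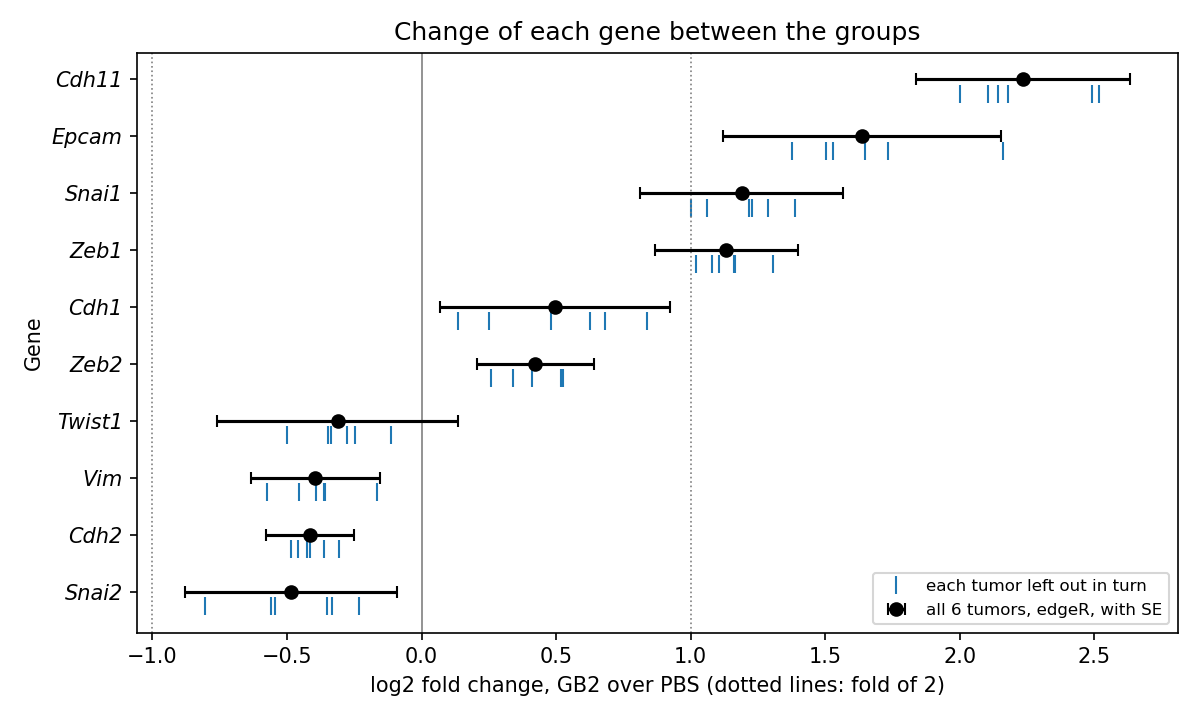
Log2 fold change of GB2 over PBS tumors for each gene, with its standard error from edgeR as bars and the values with each tumor left out as ticks. The 4 genes past a fold of 2 are Cdh11, Epcam, Snai1 and Zeb1, and no gene changes sign when a tumor is left out.

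Epcam encodes an adhesion molecule of simple epithelia and Cdh1 encodes E-cadherin, the adhesion molecule that Snail and Zeb factors repress. Epcam (ENSMUSG00000045394) lies on chromosome 17 from 87943407 to 87958557 in the positions of the deposited table. PBS tumors 1, 2 and 3 had 27, 16 and 12 estimated counts, and GB2 tumors 1, 2 and 3 had 64, 73 and 86. Each GB2 tumor was above each PBS tumor, although all 6 counts were low. In CPM, counts scaled to a common library size, the level was 0.284 ± 0.152 (SD, n = 3) in PBS and 0.884 ± 0.125 (SD, n = 3) in GB2 tumors. This is a log2 fold change of 1.64 ± 0.52 (SE), with an unadjusted p of 0.0145 and an adjusted p of 0.508 in edgeR.

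Cdh1 (ENSMUSG00000000303), on chromosome 8 from 107329983 to 107396878, was less clear. The PBS tumors had 163, 134 and 86 estimated counts and the GB2 tumors 189, 170 and 339. In CPM the groups overlapped, since PBS tumor 1 (2.76) lay above GB2 tumors 1 (2.25) and 2 (2.04), and GB2 tumor 3 was the highest at 3.99. Its log2 fold change of 0.50 ± 0.43 (SE) had an adjusted p of 0.809 in edgeR. It was 0.14 without GB2 tumor 3 and 0.84 without PBS tumor 1.

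Cdh1 is also expressed in epidermis, which lies over tumors under the skin. The 12 keratinocyte and skin genes were all detected and all had a positive log2 fold change, with 1 of them, Trp63, at an unadjusted p under 0.05 and a fold of at least 2. Their summed level was 60.5, 25.7 and 16.8 FPKM in PBS tumors 1, 2 and 3 and 52.2, 57.9 and 87.4 FPKM in GB2 tumors 1, 2 and 3. Krt14, a keratin of the basal epidermis and the most abundant gene of the list, was at 15.2, 5.84 and 2.53 FPKM in PBS and 17.5, 19.0 and 26.8 FPKM in GB2 tumors. The part of skin in the levels of Epcam and Cdh1 was not tested.

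Start sites of 5 members (Epcam, Snai1, Twist1, Vim and Zeb2) were taken from the RefSeq promoter table. No window was searched for the remaining members, among them Zeb1 and Cdh2, so nothing is said of their motifs. The 250 bases before the start were searched for CAGGTG or CACCTG, which covers both strands of the motif. At least 1 copy was found in 17.2% of the 32851 windows in the table. Among the members, the Epcam window held 2 copies, as many or more as in 2.06% of all windows, and the Snai1 window held 1. The windows of Twist1, Vim and the 4 start sites of Zeb2 held none, which says only that these letters are absent from those windows. The 2 windows with a copy are shown because both genes were at least 2 times as abundant in GB2 tumors. They are written from 5′ to 3′ on the gene's strand in build GRCm38.p6, with the motif in capitals. The Epcam window is chr17:87635729-87635978 on the plus strand, with the motif starting at -187 and -19 from the start site. The Snai1 window is chr2:167537945-167538194 on the plus strand, with the motif starting at -126.
Epcam: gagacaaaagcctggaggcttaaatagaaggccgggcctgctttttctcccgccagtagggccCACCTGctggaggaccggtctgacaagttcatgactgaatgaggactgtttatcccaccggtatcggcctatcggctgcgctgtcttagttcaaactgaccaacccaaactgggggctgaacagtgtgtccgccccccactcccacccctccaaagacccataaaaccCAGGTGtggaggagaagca
Snai1: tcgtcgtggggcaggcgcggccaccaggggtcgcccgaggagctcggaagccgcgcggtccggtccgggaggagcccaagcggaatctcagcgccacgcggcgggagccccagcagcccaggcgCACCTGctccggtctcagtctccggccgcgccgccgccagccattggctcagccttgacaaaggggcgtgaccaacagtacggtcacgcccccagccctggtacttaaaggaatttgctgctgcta
A match is a description of the sequence and not a measured binding site.

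Cdh2 and Cdh11 are cadherins of neural and mesenchymal cells. Cdh2 (ENSMUSG00000024304), on chromosome 18 from 16721934 to 16942303, was the most abundant cadherin among the members. Its level in CPM was 90.8, 78.8 and 71.9 in the PBS group and 64.2, 60.7 and 56.3 in the GB2 group. Every GB2 tumor was below every PBS tumor, the one member with that order. The difference was small, at a log2 fold change of -0.41 ± 0.16 (SE), with an unadjusted p of 0.0362 and an adjusted p of 0.679 in edgeR. Leaving out single tumors gave an unadjusted p between 0.0305 and 0.115. The table lists one overlapping gene on the other strand, Gm15485, with 0 counts in all tumors.

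Cdh11 (ENSMUSG00000031673), which encodes OB-cadherin of osteoblasts and fibroblasts, lies on chromosome 8 from 103358727 to 103512274. It had 55, 72 and 113 estimated counts in the PBS group, against 505, 288 and 619 in the GB2 group. The lowest GB2 tumor, number 2, was still well above the highest PBS tumor, number 3. In CPM the level was 1.18 ± 0.362 (SD, n = 3) in PBS and 5.59 ± 1.95 (SD, n = 3) in GB2 tumors. At a log2 fold change of 2.24 ± 0.40 (SE), this was the largest difference among the members. The unadjusted p was 6.15e-04 and the adjusted p 0.190 in edgeR, against an adjusted p of 1.88e-05 in DESeq2. Leaving out single tumors gave values between 2.00 and 2.52.

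Pairs of members were also compared within each tumor. On log2(FPKM + 0.1), the ratio of Cdh2 to Cdh1 was 3.99, 4.25 and 4.62 in the PBS group and 3.77, 3.79 and 2.87 in the GB2 group. The GB2 tumors were all lower, with a mean difference of -0.81 against a larger SD of 0.53 (exact two-sided permutation test, p = 0.1, n = 3 per group, the smallest p that 3 against 3 allows). For Vim to Epcam, the values were 10.7, 11.0 and 10.7 in the PBS group and 9.40, 9.25 and 9.26 in the GB2 group. The mean difference was -1.49 and the larger SD 0.16, with the same exact p of 0.1. Both differences moved with the pseudocount. With a pseudocount of 1 FPKM they were -0.49 for Cdh2 to Cdh1 and -0.60 for Vim to Epcam, and with 0.01 FPKM they were -0.91 and -2.02. Without GB2 tumor 3, the Cdh2 to Cdh1 difference was -0.50.

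Vim (ENSMUSG00000026728) lies on chromosome 2 from 13578738 to 13587637. It stood at 2525, 1967 and 1426 CPM in the PBS group and at 1430, 1446 and 1627 CPM in the GB2 group. PBS tumor 3 was just below the lowest GB2 tumor, and the other PBS tumors were above all GB2 tumors. Its log2 fold change of -0.39 ± 0.24 (SE) had an adjusted p of 0.761 in edgeR. It ranged from -0.58 without PBS tumor 3, at an unadjusted p of 0.0319, to -0.16 without PBS tumor 1, at 0.386.

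**Figure D4:**
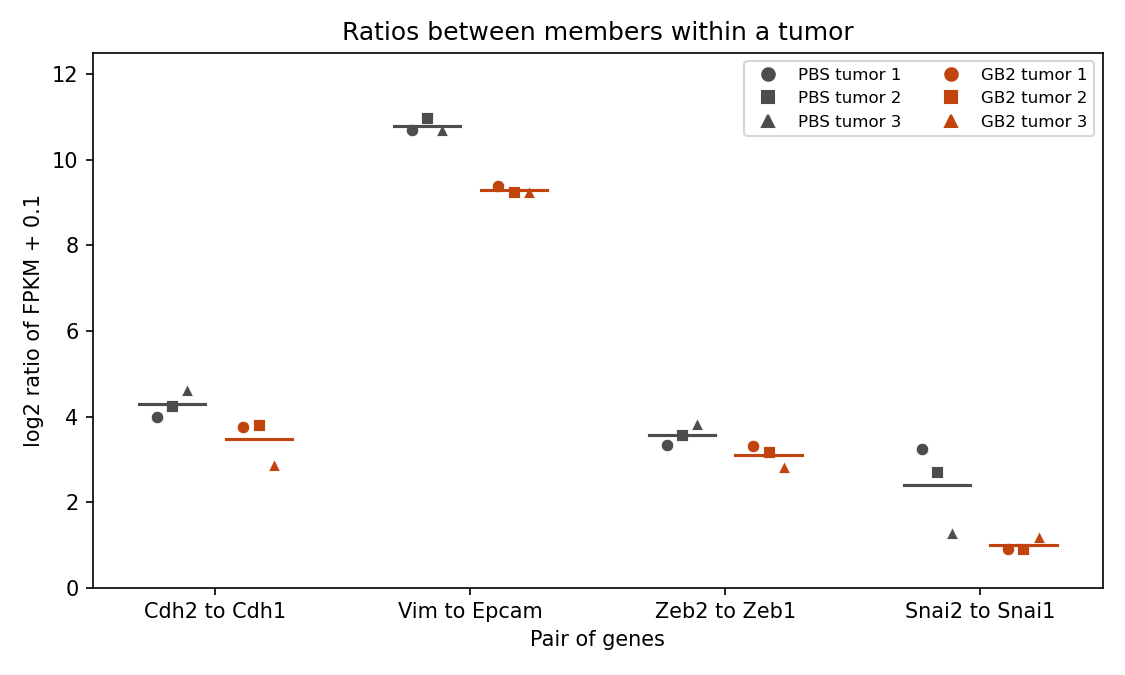
Log2 ratio of FPKM + 0.1 between pairs of members in each tumor, with a bar at each group mean. In all 4 pairs every GB2 tumor lies below every PBS tumor, with mean differences from -0.48 for Zeb2 to Zeb1 to -1.49 for Vim to Epcam at this pseudocount.

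Snai1 and Snai2 encode the zinc finger repressors Snail and Slug. Snai1 (ENSMUSG00000042821), on chromosome 2 from 167380115 to 167384734, had 29, 52 and 62 estimated counts in the PBS group and 158, 115 and 132 in the GB2 group. All GB2 tumors were above all PBS tumors. The level in CPM was 0.702 ± 0.196 (SD, n = 3) in PBS and 1.61 ± 0.254 (SD, n = 3) in GB2 tumors. The log2 fold change of 1.19 ± 0.38 (SE) had an unadjusted p of 0.0145 and an adjusted p of 0.508 in edgeR. Without GB2 tumor 1, the unadjusted p was 0.0514.

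Snai2 (ENSMUSG00000022676), on chromosome 16 from 14523716 to 14527249, went the other way. Its level was 7.73, 7.02 and 2.91 CPM in the PBS group and 4.56, 3.41 and 4.63 CPM in the GB2 group. The groups overlapped because PBS tumor 3 was the lowest of all 6 tumors. Its log2 fold change of -0.49 ± 0.39 (SE) had an adjusted p of 0.8005 in edgeR. It ranged from -0.81 without PBS tumor 3, at an unadjusted p of 0.0263, to -0.23 without PBS tumor 1, at 0.589. The log2 ratio of Snai2 to Snai1 was 3.23, 2.70 and 1.27 in the PBS group and 0.90, 0.91 and 1.18 in the GB2 group. Slug RNA thus exceeded Snail RNA in every tumor, and by less in every GB2 tumor, although PBS tumor 3 was close to GB2 tumor 3. The mean difference was -1.40 with a larger SD of 1.01 (exact two-sided permutation test, p = 0.1, n = 3 per group). Leaving out PBS tumor 3 gave -1.97 and leaving out PBS tumor 1 gave -0.99. With a pseudocount of 1 FPKM it was -0.72, at an exact p of 0.2.

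Twist1 (ENSMUSG00000035799), a helix-loop-helix factor of mesoderm and cranial mesenchyme, lies on chromosome 12 from 34007670 to 34009828. It had 42, 29 and 42 estimated counts in the PBS group and 40, 35 and 41 in the GB2 group. The values overlapped, at a log2 fold change of -0.31 ± 0.45 (SE) and an adjusted p of 0.878 in edgeR. It was -0.11 without PBS tumor 1 and -0.50 without PBS tumor 2. Its paralog Twist2 was at a log2 fold change of 1.39, from 0.0740 ± 0.00710 FPKM (SD, n = 3) in PBS to 0.212 ± 0.0512 FPKM (SD, n = 3) in GB2 tumors, with an unadjusted p of 0.0180 and an adjusted p of 0.556 (edgeR). The difference between the paralogs was not tested.

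Zeb1 and Zeb2 are paralogous zinc finger and homeodomain repressors. Zeb1 (ENSMUSG00000024238), on chromosome 18 from 5591860 to 5775467, had 151, 270 and 212 estimated counts in the PBS group and 551, 552 and 628 in the GB2 group. The GB2 tumors were close together and all above the PBS tumors. The level was 3.13 ± 0.649 CPM (SD, n = 3) in PBS and 6.86 ± 0.457 CPM (SD, n = 3) in GB2 tumors. The log2 fold change of 1.13 ± 0.26 (SE) had an unadjusted p of 0.00306 and an adjusted p of 0.278 in edgeR, and an adjusted p of 0.00917 in DESeq2. The value lay between 1.02 and 1.31 with each tumor left out. Gm10125, which overlaps the Zeb1 gene by 534 bases on the other strand, had at most 14 counts in any tumor.

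Zeb2 (ENSMUSG00000026872), on chromosome 2 from 44873644 to 45007407, was the more abundant paralog in every tumor. Its level was 72.4, 112 and 111 CPM in the PBS group and 147, 134 and 114 CPM in the GB2 group. GB2 tumor 3 was barely above PBS tumors 2 and 3, so the groups lay apart by a narrow margin. The log2 fold change of 0.42 ± 0.22 (SE) had an adjusted p of 0.757 in edgeR, and it was 0.26 without PBS tumor 1. The antisense gene Zeb2os overlaps it by 3381 bases and had 66 to 141 counts, against 4280 to 12330 for Zeb2. Reads of the 2 strands could have been shared, since the strand setting of the counting is not given in the sources used here. The log2 ratio of Zeb2 to Zeb1 was 3.34, 3.57 and 3.83 in the PBS group and 3.32, 3.17 and 2.81 in the GB2 group. GB2 tumor 1 was only just below PBS tumor 1. The mean difference was -0.48 with a larger SD of 0.26 (exact two-sided permutation test, p = 0.1, n = 3 per group), and with a pseudocount of 1 FPKM it turned to 0.07.

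Several marker lists had a higher summed FPKM in every GB2 tumor than in every PBS tumor. These were the fibroblast, macrophage, endothelial, neutrophil, dendritic cell and skeletal muscle lists. The members Cdh11, Zeb1, Snai1, Zeb2 and Epcam had the same order, which 8.61% of all genes had in CPM. The sums of the T cell list overlapped. Of 10 fibroblast genes, 9 were higher at an unadjusted p under 0.05 and a fold of at least 2, against 3.74% of all genes. All 10 had a positive log2 fold change, with a median of 1.48. Their summed level was 13.6 to 17.7 FPKM in PBS and 38.1 to 58.5 FPKM in GB2 tumors, and none was at 0. Pdgfra, a receptor that defines fibroblasts, was at 0.138, 0.177 and 0.226 FPKM in the PBS group and 0.750, 0.536 and 0.878 FPKM in the GB2 group. All 12 macrophage genes were also higher in GB2 tumors, with 10 past the same limits and a median of 1.87, and their sum was 43.9 to 60.9 FPKM in PBS and 170 to 237 FPKM in GB2 tumors. The 9 endothelial genes were all higher, 4 of them past the limits, with sums of 13.5 to 13.7 FPKM in PBS and 25.9 to 30.0 FPKM in GB2 tumors. Sums ran from 2.50 to 5.76 FPKM in PBS and 9.97 to 13.8 FPKM in GB2 tumors for neutrophils, from 1.06 to 1.53 and 2.34 to 2.76 FPKM for dendritic cells, and from 41.7 to 69.3 and 91.8 to 107 FPKM for skeletal muscle. The part of these cells in the values of Cdh11, Zeb1, Snai1, Zeb2 and Epcam was not tested.

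The other genes of the pathway were taken from lists by function. Among the other classical cadherins, 17 of 19 had a row and 9 were tested, 5 higher and 4 lower, with 1 past an unadjusted p under 0.05 and a fold of at least 2. That gene was Cdh5, the endothelial VE-cadherin, at 2.73 ± 1.57 FPKM (SD, n = 3) in PBS and 7.30 ± 0.284 FPKM (SD, n = 3) in GB2 tumors (log2 fold change 1.38, adjusted p 0.506, edgeR). Cdh19, a cadherin of the neural crest lineage named here because of its level, was at 31.2 ± 4.97 FPKM (SD, n = 3) in PBS and 30.8 ± 3.35 FPKM (SD, n = 3) in GB2 tumors, above Cdh2 in both groups. Of the 13 genes for catenins and their partners, 11 were tested, 9 higher and 2 lower, and 0 passed these limits. The smallest p belonged to Jup, which encodes plakoglobin, with a log2 fold change of 0.83, an unadjusted p of 0.0764 and an adjusted p of 0.757 (edgeR).

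Of 28 epithelial genes, 22 were tested, 19 higher and 3 lower in GB2 tumors, with a median log2 fold change of 0.367, and 0 passed an unadjusted p under 0.05 with a fold of at least 2. The median ran from 0.13 without PBS tumor 3 to 0.64 without GB2 tumor 1, with 0.598 without PBS tumor 1. Krt20, one of the higher genes, had 0, 0 and 28 counts in PBS and 37, 45 and 108 in GB2 tumors. It passed the filter on low counts only through the GB2 tumors, which favors a positive sign. Of the untested genes, Cldn7, Cdx2, Crb3 and Ovol2 had a lower mean FPKM in GB2 tumors, and Krt19 and Krt7 a higher one. Esrp1, a splicing regulator of epithelia, had the smallest p, with a log2 fold change of 1.25 and an adjusted p of 0.757 (edgeR), at 0.210 FPKM in GB2 tumors. All 22 mesenchymal genes were tested, 20 higher and 2 lower, with a median of 1.08. Past the limits were 12, all of these higher, against 3.74% of all genes. DESeq2 called 11 of the 22, against 1.65% of all genes with an adjusted p, and edgeR called 0. Col3a1, a fibrillar collagen chain, was at 12.8 ± 2.94 FPKM (SD, n = 3) in PBS and 42.3 ± 6.85 FPKM (SD, n = 3) in GB2 tumors. Tnc, a matrix protein of remodeling stroma, had a log2 fold change of 2.34 and Fbn1, a microfibril protein, one of 1.49, each with an adjusted p of 0.186 in edgeR. Fibroblasts also make such matrix proteins, and their part in these values was not tested. The members Vim and Cdh2 had the opposite sign.

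Among 17 tested transcription factors linked to the transition, 10 were higher and 7 lower, with a median of 0.202 that was 0.0614 without PBS tumor 1, 0.0899 without GB2 tumor 2, 0.101 without PBS tumor 3 and -0.0117 with counts divided by 4. Past the limits were Prrx1 (log2 fold change 1.10, adjusted p 0.353, edgeR), Foxc2 (1.74, adjusted p 0.685) and Twist2, all of mesenchymal tissue and all under 1 FPKM in both groups. DESeq2 called Prrx1, at an adjusted p of 0.0306, and not the other two. Foxc2 rests on 8, 4 and 6 estimated counts in the PBS group, which are very few read pairs, and it passed the filter on low counts only through the GB2 tumors, where it is high. The 15 corepressors and regulators of Snail and Zeb proteins had 7 higher, 8 lower and 0 past the limits. Hdac2, a histone deacetylase, had the smallest p of them (log2 fold change -0.71, adjusted p 0.757, edgeR), and its level of 75.7 FPKM in PBS tumor 1 stood above 26.8 to 35.6 FPKM in the other tumors. Without PBS tumor 1 its log2 fold change was -0.08. Of 15 genes of TGF-beta signaling, an inducer of the transition, 9 were higher and 6 lower, and 0 passed both limits. Tgfb1, a ligand, had the smallest p, 0.0429, with a log2 fold change of 0.84 and an adjusted p of 0.701 (edgeR). Tgfb2, another ligand named here because of its opposite sign, had a log2 fold change of -0.81 at an unadjusted p of 0.0545 (edgeR).

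**Figure D5:**
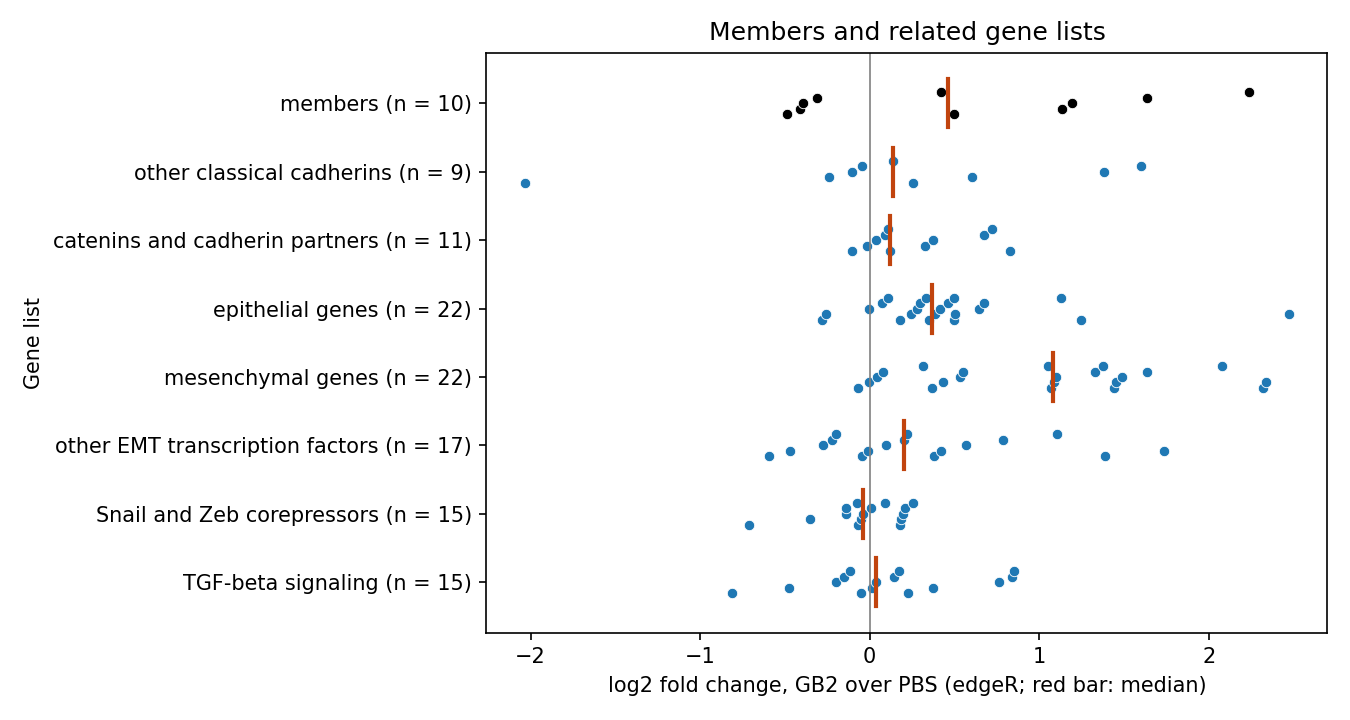
Log2 fold change of GB2 over PBS tumors for every tested gene of the members and of each pathway list, with the list median as a red bar. Among these pathway lists the mesenchymal genes have the highest median, 1.08, against 0.46 for the 10 members.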

How the data were processed

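Estimated counts and FPKM values, which the authors deposited for each gene and tumor, were used. The deposited estimated counts are whole and carry no library scaling, and the deposited FPKM values are divided by transcript length and library total. The submitters' processing notes list cutadapt 1.9, HISAT2 2.2.1, StringTie 2.1.6, DESeq2, edgeR and the build mm10, but of the 31999 gene IDs also found in GRCm38, 1.86% have its chromosome, start and end, so gene positions are those of the table. The role of each tool and the strand setting are not given in the sources used here.

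The count test was edgeR 4.0.16 under R 4.3.3. Low genes were removed with filterByExpr (minimum count 10), TMM factors were applied, and p values from glmQLFit and glmQLFTest were adjusted by Benjamini-Hochberg over all genes tested. Standard errors come from the test statistic. The thresholds are those of the study's methods. The common dispersion of 0.164 corresponds to a variation of 40.5% among replicate tumors, which limits what 3 per group can show. Alternatives used DESeq2 1.42.0, limma 3.58.1 on log2(FPKM + 1) and log2(FPKM + 0.1) for genes averaging at least 0.1 FPKM, other scalings, no filter, counts divided by 4, a replicate block and each tumor left out. Exact permutation tests used scipy 1.17.1. The computations were tested on simulated counts. Library totals set the precision, and they are given with the results.

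All 10 members are named, with, from each pathway list, at most 3 genes in each direction with the smallest unadjusted p under 0.05 and a fold of at least 2, or else the gene with the smallest p. Members and lists were chosen with earlier results of these data known. The 2 lists that check the labelled tissue were added after the values were seen, as were 2 lists from the table's GO annotation. Within each group, no pair of libraries had the same count in more than 1.70% of tested genes. All per-sample columns were used. No batch is given in the labels.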

Additional observations from a re-analysis of the deposited data

How the results depend on the processing

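Each member kept the sign of its log2 fold change in all 149 alternative values computed for the 10 genes. The number of genes called moved from 0 with edgeR to 373 with DESeq2, and that of members called from 0 to 2, while the other fits called 0. Members at an unadjusted p under 0.05 and a fold of at least 2 numbered 4 with edgeR and 0 with limma on log2(FPKM + 1), where the pseudocount shrinks low genes. All genes at these limits numbered 913 with edgeR and 131 in that limma fit, and from 707 to 1380 with each tumor left out, the highest without PBS tumor 3. The log2 ratio of Zeb2 to Zeb1 differed by -0.48, and by 0.0658 with a pseudocount of 1 FPKM, which is larger than the level of Zeb1. Library totals alone, RLE and upper-quartile factors moved the median of all genes by less than 0.1. Twist1, Twist2 and Foxc2 gave no value with counts divided by 4, since they failed the filter. Nothing in the labels pairs the tumors, and deviations from the group means correlated at 0.03, 0.15 and -0.24 between same-numbered tumors. Adding a replicate block left the members past the same limits at 4, with 764 genes in all, and the 4 ratios kept their means at an exact sign-flip p of 0.25, the smallest 3 pairs allow. Among the 10 members, depth limits Epcam and Twist1 most, at 12 to 86 counts per tumor.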

Other observations

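In 2 lists taken from the table's own GO annotation after the values were seen, members left out, epithelial to mesenchymal transition had 39 tested genes, 27 higher and 12 lower in GB2 tumors, with a median log2 fold change of 0.176 and 4 genes past an unadjusted p under 0.05 and a fold of at least 2, all higher. Adherens junction had 134 tested genes, 94 higher and 40 lower, with a median of 0.163, and 9 higher and 1 lower gene past these limits. Over all genes tested, 3.74% were higher and 0.918% lower past these limits. Of the 10 members, 2 carry the first term and 3 the second. edgeR called 0 genes of either list, and DESeq2 called 3 and 4 (1.65% of all genes with an adjusted p).

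The melanocyte lineage list had 9 higher and 4 lower of 13 genes, with a median log2 fold change of 0.28, and 0 genes past an unadjusted p under 0.05 and a fold of at least 2 in edgeR. In TMM-scaled CPM the groups overlapped in each of the 13 genes, while in FPKM the groups lay apart in Slc45a2, a melanosome transporter gene, at 198 to 226 in PBS and 227 to 317.5 in GB2 tumors. Mlana, a melanosome protein gene, ranged from 170 to 815 FPKM, with its highest value in PBS tumor 1. The T cell list had 2 higher and 6 lower of 8 genes, with summed levels of 0.433 to 3.29 FPKM in PBS and 0.912 to 2.83 FPKM in GB2 tumors. The pericyte and smooth muscle, dendritic cell, neutrophil, skeletal muscle and adipocyte lists had 8, 5, 6, 8 and 6 tested genes, every one of them with a positive log2 fold change. Cd209a had 12, 4 and 0 counts in PBS tumors 1, 2 and 3, and Retnlg 18, 0 and 0. Such genes passed the filter on low counts only through the GB2 tumors, which favors a positive sign. The same holds for Clec9a, Mmp8, Ccr7, Cxcr2, Cnn1 and Lep, and for Marco of the macrophage list. It holds too for Myod1 of the skeletal muscle list, with 4, 8 and 20 counts in PBS tumors 1, 2 and 3. Of the untested dendritic cell genes, Flt3 and Xcr1 had a lower mean FPKM in GB2 tumors and Cd207 a higher one. The B and plasma cell, Schwann cell and proliferation lists had medians of -0.0937, 0.0386 and 0.0842.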
